A study of Bos taurus with 16 samples.

Results

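The proteasome genes of CD14+ cells from the endometrium were compared with those of CD14+ cells from the blood of the same 4 pregnant cows. The genes are the constitutive subunits of the proteasome, its caps, its assembly chaperones and its activators. They were found by the name of a probe in the array files, either the gene name or the symbol in brackets in its description, which had to be PSMA, PSMB, PSMC, PSMD, PSME, PSMF or PSMG followed by a number. PSMB8, PSMB9 and PSMB10, the subunits of the immunoproteasome, were left out, and of several probes of a gene the brightest was taken. The rule found 43 of the 21475 probes, for 40 genes, and 39 of the 40 genes had a probe well above background in all 16 channels. No PSMG gene was among them.

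Both cell types came from cows collected at an abattoir, and CD14+ cells were sorted by flow cytometry from dispersed endometrium between the placentomes and from blood mononuclear cells. No cow received a treatment, and the labels give no breed or age. Animal 1 was at day 164 of pregnancy, animal 2 at day 239, animal 3 at day 242 and animal 4 at day 248. RNA was amplified before it was labeled, and 2 arrays were run per animal as technical replicates, each with both tissues of the animal in different dyes. The dyes were swapped between the 2 arrays in animals 1, 2 and 4 but not in animal 3.

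The proteasome is the large protease that degrades proteins tagged with ubiquitin. Its core, the 20S particle, is a barrel of outer rings of alpha subunits, which gate the entry, and inner rings of beta subunits, 3 kinds of which cut peptide bonds. The 19S cap has a ring of ATPases that unfold the substrate and non-ATPase subunits that bind ubiquitin, remove it and hold the cap together. In macrophages the peptides that it makes are loaded on class I molecules, and interferon replaces the catalytic subunits by those of the immunoproteasome and raises the activator made of PSME1 and PSME2.

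Levels are log2 normalized signals, averaged over the 2 spots of a probe and the 2 arrays of an animal. A log2 ratio is the level in endometrium minus that in blood of the same animal, so that a positive value is higher in endometrium. It was tested against 0 over the 4 animals with limma for all 16653 probes that a tissue had well above background in 4 or more of its 8 channels. Called probes had a fold change over 2 and an adjusted p no higher than 0.05. Beside the limma p stands a 2-sided exact permutation count, the number of the 16 exchanges of the tissues within animals that gave a mean as large as the one measured. That count cannot go below 2 with 4 animals, so the exact test alone cannot reach a p of 0.05. Levels of different probes were not compared with each other, and precision is limited by 4 animals with 2 arrays apiece.

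Markers of cell types differed between the tissues and between the animals. CD14, by which the cells were sorted, had levels of 14.04, 6.07, 9.4999 and 7.38 in endometrium and of 16.12, 5.76, 8.85 and 6.94 in blood of animals 1 to 4, so that animal 1 stood apart in both tissues. The log2 summed level of the blood monocyte markers was 19.29 in the blood of animal 1 and 13.44 to 14.39 in that of the others, and 12.11 to 15.56 in endometrium. The probe named LYZ, whose RefSeq symbol is LYZ2, was well above background in neither tissue. Of the 6 monocyte markers tested 0 were called. Of the 8 tissue macrophage markers tested 6 were called, all higher in endometrium, with a summed level of 14.4 to 19.1 against 12.96 to 15.95 in blood, where animal 1 was the highest in each. Of the 5 markers shared by monocytes and macrophages 2 passed the unadjusted p with the fold change in endometrium and 0 were called. Results that rest on animal 1 are given with and without it.

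The B cell markers were higher in blood for 6 of 6 genes, of which 4 passed the unadjusted p with the fold change and 1 was called, with a summed level of 14.4 to 17.1 in blood and of 13.3 to 15.8 in endometrium. Of the 9 epithelial markers tested, 9 passed the unadjusted p with the fold change in endometrium and 6 were called, with a summed level of 15.3 to 18.5 in endometrium against 10.9 to 13.1 in blood. Of the 10 trophoblast markers GCM1 was well above background in 0 channels of either tissue. Of the 9 tested, 7 were called as higher in endometrium, with a summed level of 15.6 to 17.3 against 11.5 to 13.2. The probe taken as PAG1 passed the unadjusted p with the fold change in the other direction, at a log2 ratio of -2.10 with 3 of 4 animals below 0. Its gene name on the array is only an identifier, and whether it reads a placental gene was not checked. The summed levels include it. The stroma markers were above 0 for 7 of 7 genes, at 8.41 to 17.8 against 7.65 to 11.6. Of these 7, 5 passed the unadjusted p with the fold change and 2 were called. The natural killer and T cell markers were above 0 for 8 of 9 genes, at 16.95 to 19.04 against 13.18 to 17.17. Of these 9, 5 passed the unadjusted p with the fold change in endometrium and 0 were called. The granulocyte markers were below 0 for 4 of 5 genes with 2 called, at 7.56 to 11.9 against 8.92 to 14.8, and CAMP was well above background in neither tissue. Of these 5, 3 passed the unadjusted p with the fold change in blood and 1 in endometrium. In bulk samples fewer cells of a type and less RNA per cell cannot be told apart, and the part of other cells in the proteasome values was not tested.

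The probes are 60 bases long, and those of the genes whose readings depend on the choice of probe are shown first, with the 2 genes of the largest rise. Capitals mark the longest run of letters that both probes of a gene share, which was 5 to 6 bases, so that the probes of a gene read different stretches. The PSMA8 probes and the brighter PSME1 probe are shown whole and 30 bases of each of the others. All are written 5′ to 3′ as in the array files, which give no position in the genome for them.
PSME3, brighter probe, bases 1 to 30: agtaatcacACCTCTctctgtttttagtta
PSME3, dimmer probe, bases 26 to 55: acaggtactttgACCTCTttctaaagctgc
PSME1, brighter probe: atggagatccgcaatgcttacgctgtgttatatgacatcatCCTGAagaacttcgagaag
PSME1, dimmer probe, bases 2 to 31: tccacacccactcCCTGAccatgcaggctg
PSMA8, brighter probe: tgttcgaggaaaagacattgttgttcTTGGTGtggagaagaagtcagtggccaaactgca
PSMA8, dimmer probe: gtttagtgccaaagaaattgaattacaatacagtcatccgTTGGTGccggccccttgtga
PSMA7, bases 1 to 30: tgggggcaccttgtgtggctaaccatacac
PSMD10, bases 1 to 30: agcctgttaggactgaaggtattcataagt
PSMD4, bases 1 to 30: gtagggtggggggtagggtcggaggtgttg

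No proteasome gene was called. Of the 39 genes tested, 0 passed the adjusted p and the fold change, where 1.35% of all probes did, and the lowest adjusted p was 0.256, that of PSMD10. With a limma p no higher than 0.05 before adjustment and a fold change over 2, 2 genes were higher in endometrium, PSMD10 and PSMD4, which is 5.13% of the genes, and 7.98% of all probes passed in that direction. In the other direction 0 genes passed, and 8.05% of all probes did. The median log2 ratio of the 39 genes was -0.21 and that of all probes tested was -0.14. All probes are thus shifted towards blood in these values, and the proteasome genes lay 0.067 below that shift. Without animal 3 the median of the genes was -0.027 and that of all probes was -0.14, so that the genes then lay above all probes.

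**Figure D1:**
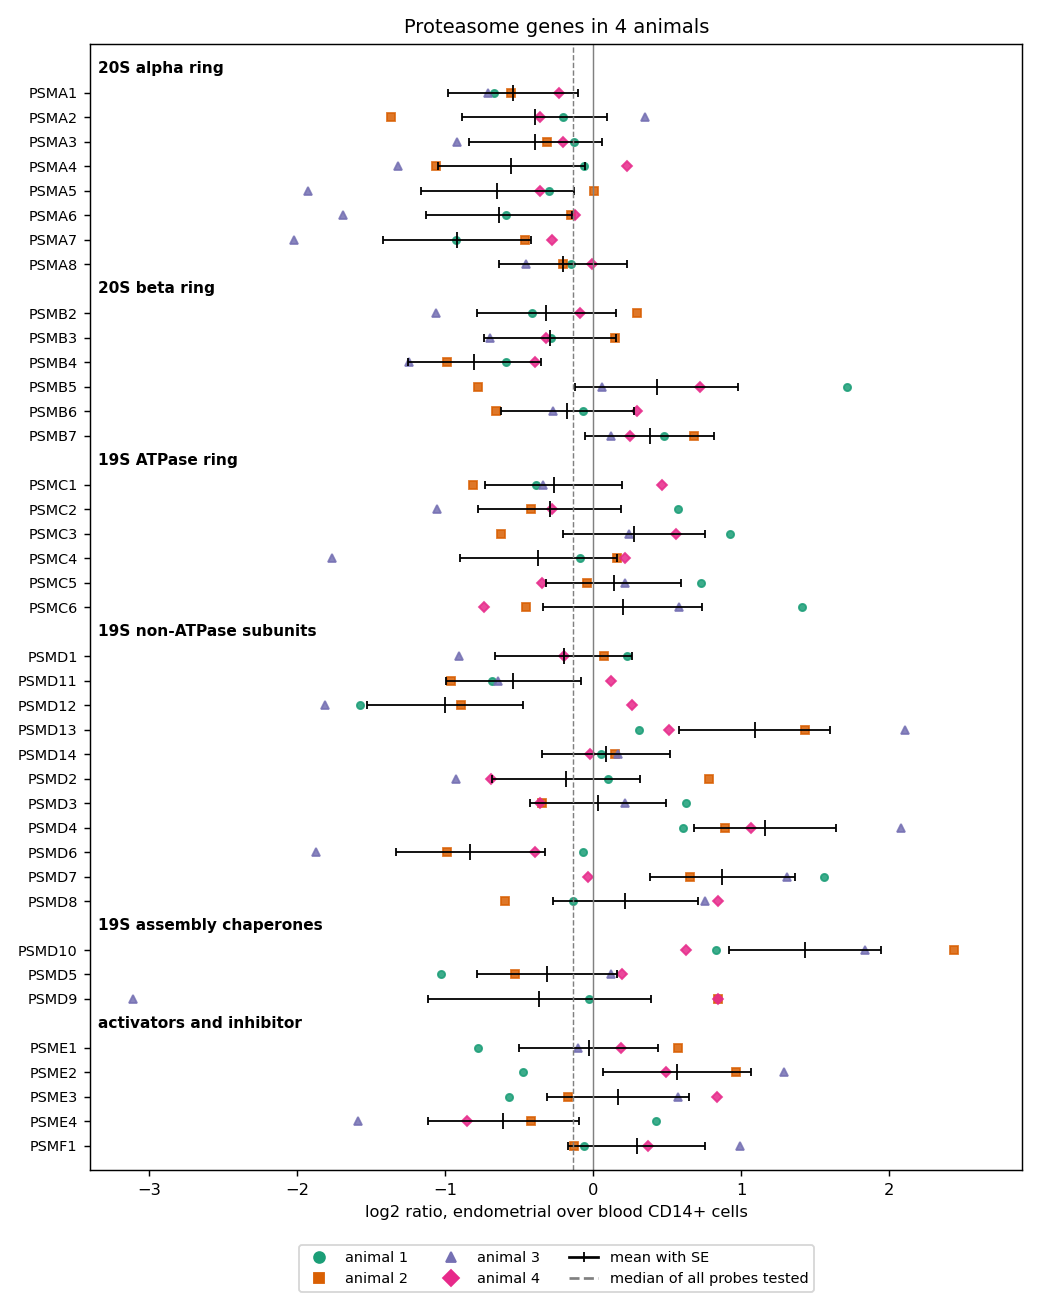
The log2 ratio of endometrial over blood CD14+ cells is plotted for the 39 proteasome genes tested, by subcomplex, with a point for each of the 4 animals, the mean with its SE from limma in black and the median of all probes tested as a dashed line. All 8 genes named as alpha subunits have a mean below 0, the 19S genes lie on both sides, and PSMD10, PSMD4 and PSMD13 are above 0 in 4 of 4 animals.

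The alpha ring leaned towards blood. All 8 genes named as alpha subunits had a mean log2 ratio below 0, with a median of -0.55, or 0.41 below that of all probes, and 5 of the 8 were lower in endometrium in 4 of 4 animals. Over all subcomplexes, 7 of 39 genes, or 17.9%, were higher in blood in 4 of 4 animals, against 15.2% of all probes, and 4 genes, or 10.3%, were higher in endometrium in 4 of 4 animals, against 9.82% of all probes. Both shares are near those of all probes. The levels of the tissues did not overlap for 5 genes, PSMA1, PSMB4, PSMB7, PSMD4 and PSMD10, which is 12.8% of the 39, against 6.06% of all probes. None of the 8 alpha genes passed the unadjusted p of 0.05, and their lowest adjusted p was 0.407. Under other settings PSMA1 did, with p = 0.0153 by the methods' analysis of variance and p = 0.0495 by limma with the normalization from the scanner signals (exact permutation 2 of 16), and it was not called under either.

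The probe named PSMA7 had the largest difference of the ring. Its level in endometrium was 7.25, 9.32, 7.45 and 10.33 in animals 1 to 4, and its level in blood was 8.18, 9.78, 9.47 and 10.61. The animals differed more than the tissues, the tissues overlapped, and in each animal endometrium was below blood, by 2.02 in animal 3 on the log2 scale and by 0.28 in animal 4. The mean log2 ratio was -0.92 (SE 0.50), which is 1.90-fold higher in blood, with a limma p of 0.108, an adjusted p of 0.407 and an exact permutation count of 2 of 16. It was -0.56 without animal 3 and -0.55 with the normalization from the scanner signals. A brighter probe, named PSMA8 but listed under the same RefSeq entry, had a log2 ratio of -0.21 and is described below.

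PSMA1 stood apart between the tissues without an overlap. Its levels were 14.56, 14.54, 14.38 and 14.91 in endometrium and 15.23, 15.09, 15.10 and 15.14 in blood. The mean log2 ratio was -0.54 (SE 0.44, limma p = 0.253, adjusted p = 0.577, exact permutation 2 of 16). Blood cells of the 4 cows differed little in this gene, with an SD of 0.065, and endometrial cells had an SD of 0.22.

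PSMA6 had levels of 14.47, 14.53, 13.34 and 14.75 in endometrium and of 15.06, 14.68, 15.03 and 14.88 in blood. Animal 3 was the low value in endometrium, and the mean log2 ratio was -0.64 (SE 0.49, limma p = 0.235, adjusted p = 0.559, exact permutation 2 of 16), or -0.29 without animal 3. PSMA3 had levels of 13.76, 14.18, 13.78 and 14.40 in endometrium and of 13.89, 14.49, 14.70 and 14.60 in blood. The tissues overlapped, and the mean log2 ratio was -0.39 (SE 0.45, limma p = 0.410, adjusted p = 0.713, exact permutation 2 of 16), or -0.22 without animal 3.

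The probe named PSMA8, a subunit known from the testis that takes the place of PSMA7, had levels of 11.31, 11.92, 11.21 and 11.61 in endometrium and of 11.47, 12.13, 11.66 and 11.62 in blood. The mean log2 ratio was -0.21 (SE 0.44, limma p = 0.651, adjusted p = 0.861, exact permutation 2 of 16), the smallest of the ring, or -0.12 without animal 3. This probe and that of PSMA7 carry the same RefSeq accession in the files, which a reference table of assembly ARS-UCD2.0 gives as PSMA7, so that the gene it reads is uncertain. If it reads PSMA7, that gene is counted more than once among the 8 genes of the ring. The PSMA7 probe was lower relative to blood than this probe in 4 of 4 animals, by a mean of 0.72 on the log2 scale (SE 0.31, exact permutation 2 of 16). The other PSMA8 probe, whose identifier the table gives as PSMA8, was well above background in 1 of 8 endometrial and 2 of 8 blood channels and was not tested. The remaining alpha genes were PSMA2 with a log2 ratio of -0.40, PSMA4 with -0.55 and PSMA5 with -0.65, and for each of them 1 animal was not lower in endometrium.

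The lean of the ring was largest in animal 3. The medians of its 8 genes were -0.25, -0.39, -1.12 and -0.22 in animals 1 to 4, and the median over the genes was -0.29 when animal 3 was left out and -0.58 when animal 1 was. Beside all probes tested, the ring lay 0.15 below their median without animal 3 and 0.49 below it without animal 1. The B cell markers, with medians of -3.11, -3.39, -4.24 and -0.63, put the animals in the same order as the ring. The epithelial markers, with medians of 3.56, 3.76, 4.99 and 3.47, put them in that order with the opposite sign. Their summed level in endometrium was highest in animal 3, at 18.47. The part of either cell type in this result was not tested. In each of the 4 animals at least 7 of the 8 genes were below 0, where between 52.8% and 58.0% of all probes were. In animal 3 the endometrial level was below the mean of the other 3 animals for 7 of the 8 genes, with a median of -0.59, and the blood level was below it for 3 of the 8, with a median of 0.20. All 8 genes remained below 0 with the normalization from the scanner signals, without quantile normalization, with the ratios centred in each animal and without each animal in turn. Of the settings tried, the exception was the scanner files read as the samples they are attached to, with which 6 of 8 were. Relative to the deposited values, that reading exchanges the tissues in animals 1, 2 and 4, whose dyes were swapped, and keeps them in animal 3.

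The beta ring was mixed. Of its 7 genes 6 were tested, with a median log2 ratio of -0.23, or -0.11 without animal 3, and 4 were below and 2 above 0. The structural subunit PSMB4 had levels of 14.09, 13.62, 13.60 and 14.38 in endometrium and of 14.68, 14.61, 14.84 and 14.78 in blood. Every endometrial value lay below every blood value, and the mean log2 ratio was -0.81 (SE 0.45), 1.75-fold higher in blood (limma p = 0.116, adjusted p = 0.420, exact permutation 2 of 16). By the methods' analysis of variance its p was 0.0249. By limma it was 0.0222 with the normalization from the scanner signals, 0.0315 with the dye term and 0.0472 without the filter on dim probes. It was not called under any of these. The remaining structural subunits had smaller ratios, -0.32 for PSMB2 and -0.29 for PSMB3, with animal 2 above 0 in each. PSMB1 was not tested, since its probe was well above background in 1 of 8 endometrial and 2 of 8 blood channels, and its ratio of -0.56 is one of signals near the background.

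None of the 3 catalytic subunits passed the test, and their ratios had both signs. PSMB7, which carries the trypsin-like activity, had levels of 15.84, 15.81, 15.37 and 15.48 in endometrium and of 15.36, 15.13, 15.25 and 15.23 in blood. The tissues did not overlap, and endometrium was higher in 4 of 4 animals by a mean of 0.38 (SE 0.44, limma p = 0.415, adjusted p = 0.718, exact permutation 2 of 16). This gene had the largest gap between slides of those tested, with a mean of 0.15 on the slide of technical replicate 1, where animal 4 was at -0.06, and of 0.61 on the other. PSMB5, which carries the chymotrypsin-like activity, had levels of 14.40, 11.996, 13.72 and 13.87 in endometrium and of 12.68, 12.78, 13.66 and 13.15 in blood. Animal 1 was higher in endometrium by 1.72 and animal 2 lower by 0.78 on the log2 scale, and the mean log2 ratio was 0.43 (SE 0.55, limma p = 0.463, adjusted p = 0.752, exact permutation 10 of 16). Without animal 1 it was -9.6e-04. PSMB6, which carries the caspase-like activity, had levels of 14.05, 13.89, 14.03 and 14.48 in endometrium and of 14.12, 14.55, 14.31 and 14.19 in blood. Its log2 ratio was -0.18 (SE 0.45, limma p = 0.707, adjusted p = 0.885, exact permutation 8 of 16), and animal 4 was the exception with a higher endometrial level. Without animal 2 it was -0.016 and without animal 4 -0.33.

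Each catalytic subunit has a counterpart in the immunoproteasome, PSMB9 for PSMB6, PSMB10 for PSMB7 and PSMB8 for PSMB5, and the log2 ratios of the 3 pairs were compared within animals. The mean log2 ratio was 0.04 for PSMB8 (SE 0.54), -0.46 for PSMB9 (SE 0.56) and 0.58 for PSMB10 (SE 0.53), with adjusted p of 0.985, 0.739 and 0.628. In animal 1 all 3 were lower in endometrium, by 1.44, 2.06 and 0.62. The log2 ratio of PSMB8 minus that of PSMB5 was -3.15, 1.45, 0.43 and -0.30 in animals 1 to 4, that of PSMB9 minus PSMB6 was -1.99, 0.38, 0.32 and 0.18, and that of PSMB10 minus PSMB7 was -1.09, 0.88, 0.96 and 0.07. Animal 1 was thus below 0 in all 3 pairs and animals 2 and 3 above 0 in all 3. Over the 4 animals the means were -0.39 (SE 0.99), -0.28 (SE 0.57) and 0.20 (SE 0.48), and the exact permutation counts were 14, 16 and 14 of 16, with an adjusted p of 1 for each of the 3 pairs. Without animal 1, whose CD14 and monocyte markers stood apart, the means of the pairs were 0.53, 0.29 and 0.64, and the log2 ratios of PSMB8, PSMB9 and PSMB10 were 0.53, 0.08 and 0.98. The part of the cell mixture in this was not tested.

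**Figure D2:**
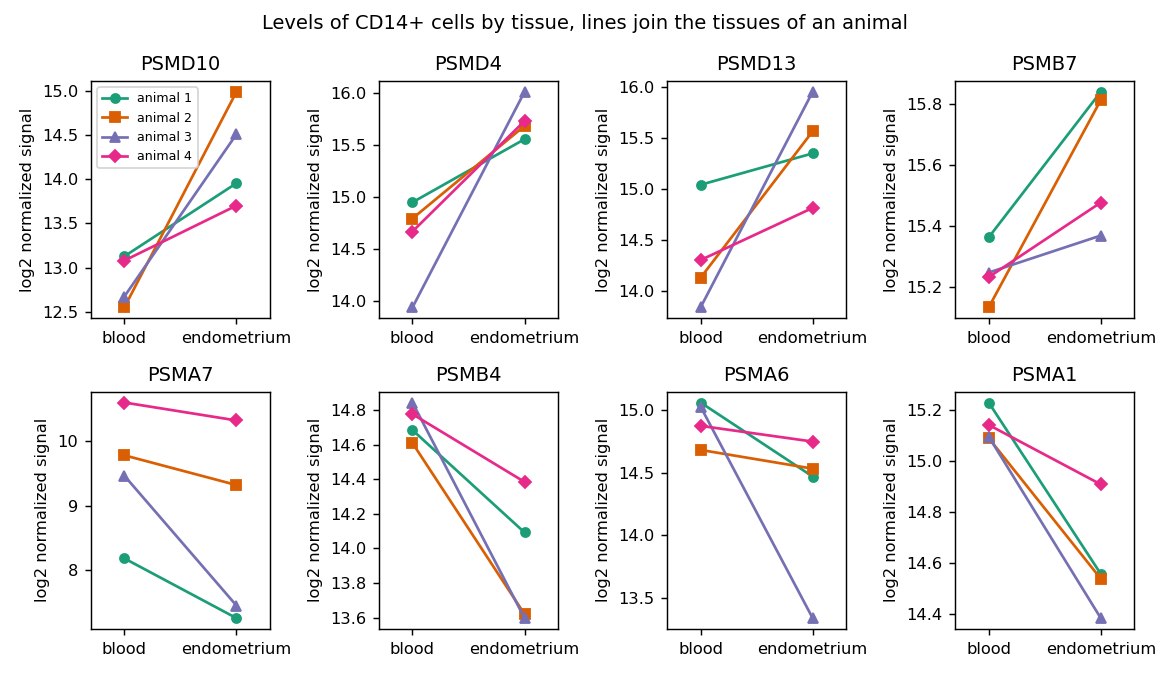
The log2 normalized signal of 8 proteasome genes is plotted in blood and endometrial CD14+ cells, with a line for each of the 4 animals and an axis for each gene. The lines of PSMD10, PSMD4, PSMD13 and PSMB7 rise from blood to endometrium in 4 of 4 animals, those of PSMA7, PSMB4, PSMA6 and PSMA1 fall, and the slopes differ between animals.

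The 19S cap had ratios of both signs. The 6 ATPases had a median log2 ratio of -0.07, and PSMC3, PSMC6 and PSMC5, at 0.28, 0.20 and 0.14, were above 0, while PSMC1, PSMC2 and PSMC4, at -0.27, -0.30 and -0.37, were below it. None of the 6 had the same sign in 4 of 4 animals, and their lowest adjusted p was 0.777. The medians in animals 1 to 4 were 0.65, -0.44, -0.06 and -0.04, so that animals 1 and 2 pointed opposite ways. Without animal 1 the median was -0.22, with 5 of the 6 below 0, and without animal 3 it was 0.084.

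The 11 non-ATPase subunits had a median of 0.03, or -0.16 without animal 1 and -0.075 on the slide of technical replicate 1, and spanned the widest range, from -1.005 for PSMD12 to 1.16 for PSMD4. PSMD4, the subunit Rpn10, which binds ubiquitin chains, had levels of 15.56, 15.69, 16.02 and 15.73 in endometrium and of 14.95, 14.80, 13.94 and 14.67 in blood. Each endometrial value was above each blood value, and the mean log2 ratio of 1.16 (SE 0.48) was 2.23-fold, with a limma p of 0.0460, an adjusted p of 0.303 and an exact permutation count of 2 of 16. The ratio was largest in animal 3, at 2.08, where the blood level was the lowest of the 4. On the slide of technical replicate 1 alone the mean log2 ratio of PSMD4 was 0.96 with a limma p of 0.096. On the other slide it was 1.36 with a limma p of 0.0221.

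PSMD13, the scaffold subunit Rpn9, had levels of 15.35, 15.56, 15.95 and 14.81 in endometrium and of 15.04, 14.13, 13.84 and 14.30 in blood. The tissues overlapped by animal 4 in endometrium and animal 1 in blood, and within each animal endometrium was higher, by a mean of 1.09 (SE 0.51), or 2.13-fold (limma p = 0.0703, adjusted p = 0.348, exact permutation 2 of 16). PSMD6, the scaffold subunit Rpn7, went the opposite way in 4 of 4 animals, with levels of 13.85, 13.60, 13.04 and 14.02 in endometrium and of 13.93, 14.58, 14.91 and 14.41 in blood. Its mean log2 ratio was -0.83 (SE 0.50, limma p = 0.142, adjusted p = 0.455, exact permutation 2 of 16), or -0.48 without animal 3.

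Of the other non-ATPase subunits, PSMD7 had a log2 ratio of 0.87 and PSMD12 one of -1.005, each with animal 4 as the exception to the sign. PSMD11 had -0.54, PSMD1 had -0.20, PSMD2 had -0.18, PSMD8 had 0.22 and PSMD3 had 0.03. PSMD14, the deubiquitinase of the cap, differed least between animals, with ratios between -0.02 and 0.16 and a mean of 0.08. These non-ATPase subunits of the cap thus had ratios of both signs, and none of the 8 passed the unadjusted p of 0.05.

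The largest difference of all 39 genes was that of PSMD10, or gankyrin, which helps to assemble the 19S ATPases and also binds regulators of the cell cycle. Its levels were 13.95, 14.99, 14.51 and 13.70 in endometrium and 13.13, 12.55, 12.67 and 13.08 in blood. The tissues did not overlap, and the ratios in animals 1 to 4 were 0.83, 2.44, 1.84 and 0.62. The mean log2 ratio was 1.43 (SE 0.51), which is 2.70-fold, with a limma p of 0.0271, an adjusted p of 0.256 and an exact permutation count of 2 of 16. The other assembly chaperones of the cap, PSMD5 and PSMD9, had ratios of -0.31 and -0.36. In PSMD9 the endometrium of animal 3 stood at 7.14 and that of the other animals between 10.19 and 11.15, while blood lay between 10.03 and 10.30. Without animal 2 or without animal 3, neither PSMD10 nor PSMD4 passed the unadjusted p with the fold change, and without animal 1 or without animal 4 PSMD10 did and PSMD4 did not.

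**Figure D3:**
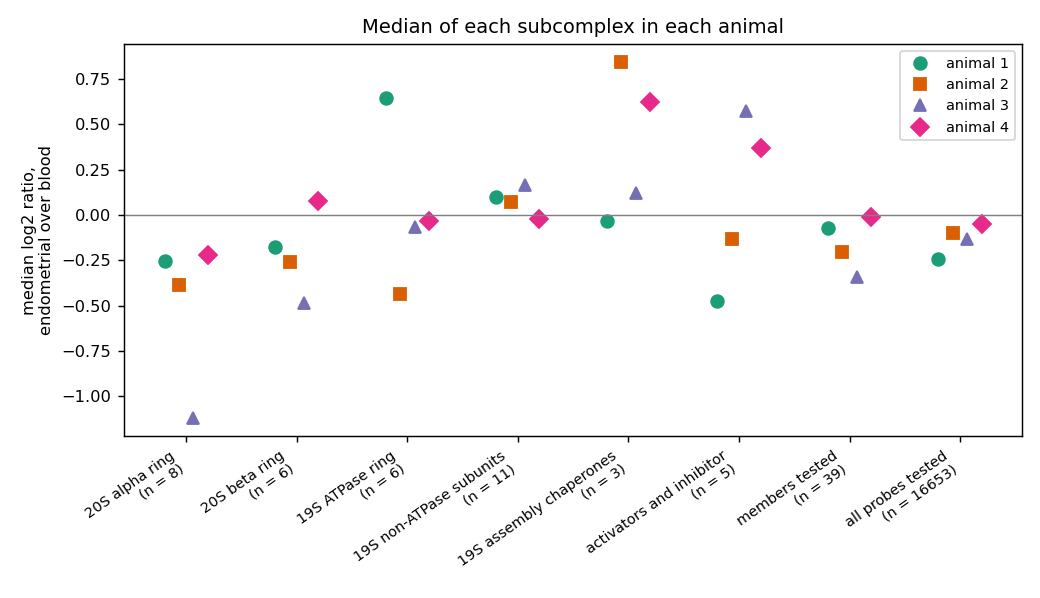
The median log2 ratio of endometrial over blood CD14+ cells is plotted for each subcomplex in each of the 4 animals, with the number of genes tested, beside all proteasome genes and all probes tested. The alpha ring is below 0 in each animal, at -1.12 in animal 3 and between -0.39 and -0.22 in the others, while the 19S groups lie on both sides of 0.

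By particle, the 14 tested genes of the 20S core had a median log2 ratio of -0.39 and the 17 subunits of the 19S cap one of 0.03. In animals 1 to 4 the medians of the core were -0.25, -0.39, -0.82 and -0.16 and those of the cap 0.22, -0.34, 0.16 and -0.02, so that the core was below the cap in 4 of 4 animals, by the least in animal 2. Without animal 1 the medians were -0.47 for the core and -0.20 for the cap, where that of all probes was -0.086, and without animal 3 they were -0.22 and 0.057, where that of all probes was -0.14. On the slide of technical replicate 1 the cap had -0.075. The difference of the particles was not tested.

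The activators had a median of 0.17 over 5 genes, with the inhibitor PSMF1 counted among them, or 0.41 without animal 1 and 0.031 without animal 3. The median of 0.17 is the value of PSME3 by its brighter probe, and the dimmer probe of that gene had -1.71. PSME2, the beta subunit of the activator that interferon induces, had levels of 14.15, 14.89, 14.96 and 14.35 in endometrium and of 14.62, 13.92, 13.67 and 13.86 in blood. Endometrium was higher in animals 2, 3 and 4 and lower in animal 1, and the mean log2 ratio was 0.57 (SE 0.50, limma p = 0.293, adjusted p = 0.613, exact permutation 4 of 16). It was 0.91 without animal 1 and 0.33 without animal 3. PSME1, its alpha subunit, had levels of 14.84, 15.75, 14.96 and 15.38 in endometrium and of 15.62, 15.18, 15.07 and 15.20 in blood, and a mean log2 ratio of -0.03 (SE 0.47, limma p = 0.949, adjusted p = 0.985, exact permutation 14 of 16), or 0.22 without animal 1. Animal 1 was the lowest of the 4 ratios in both subunits, as in the immunoproteasome subunits. PSME4, the nuclear activator PA200, had a log2 ratio of -0.61 and PSMF1 one of 0.29.

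PSME3 is the subunit of a nuclear activator that works without ubiquitin, and its reading depended on the probe. The brighter probe, which the files describe as transcript variant 1, had levels of 11.58, 11.53, 12.76 and 12.62 in endometrium and of 12.15, 11.71, 12.19 and 11.78 in blood. Its mean log2 ratio was 0.17 (SE 0.48, limma p = 0.739, adjusted p = 0.901, exact permutation 10 of 16), with animals 1 and 2 below 0 and animals 3 and 4 above it, and it was 0.41 without animal 1 and -0.057 without animal 4. The dimmer probe, described as transcript variant 2, had levels of 10.11, 10.19, 8.05 and 11.49 in endometrium and of 11.46, 11.51, 11.998 and 11.70 in blood, with a mean log2 ratio of -1.71, 3.27-fold higher in blood in 4 of 4 animals (limma p = 0.0388, adjusted p = 0.289, exact permutation 2 of 16). The brighter probe was higher relative to blood than the dimmer one in 4 of 4 animals, by 0.78, 1.16, 4.53 and 1.05, with a mean of 1.88 (SE 0.89, exact permutation 2 of 16).

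The dimmer of the PSME1 probes had a log2 ratio of -0.49 (limma p = 0.327, exact permutation 4 of 16), and its levels were 7.09, 8.90, 7.13 and 9.92 in endometrium and 7.70, 9.21, 8.28 and 9.80 in blood. Animal 1 was the lowest and animal 4 the highest in both tissues for this probe, as they were for the probe of PSMA7. The brighter PSME1 probe did not have that order in either tissue.

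**Figure D4:**
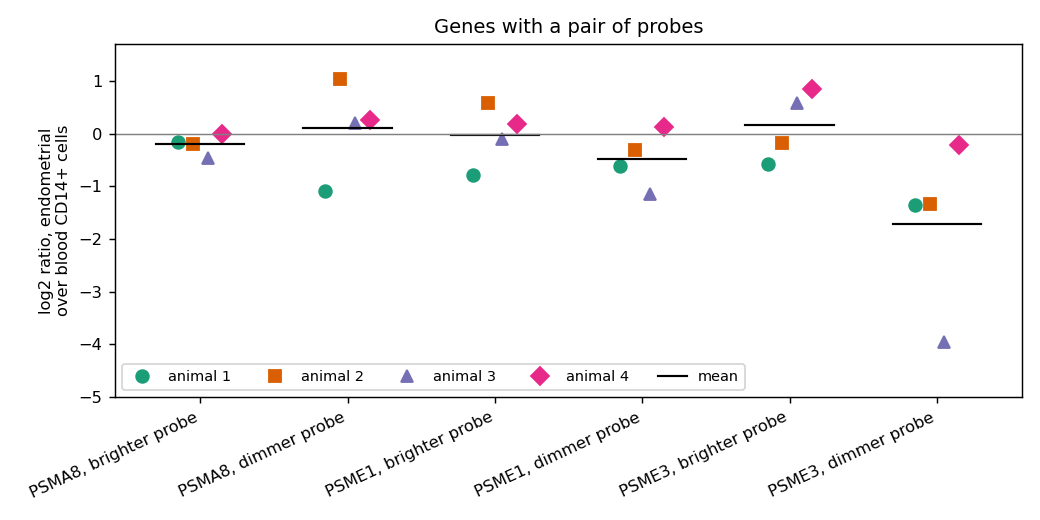
The log2 ratio of endometrial over blood CD14+ cells is plotted for each of the probes of PSMA8, PSME1 and PSME3 in each of the 4 animals, with their mean as a line. The probes of PSME3 stand apart in 4 of 4 animals, most in animal 3, and the dimmer PSMA8 probe was near the background.

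Genes outside the rule that work with the proteasome were read from lists of partners and of ubiquitin genes. Of the 23 tested partners 0 were called, 1 passed the unadjusted p with the fold change, and the median log2 ratio was -0.20. That gene was PAAF1, which binds the ATPases of the cap, at 1.68 (SE 0.52, limma p = 0.0148, adjusted p = 0.215, exact permutation 2 of 16) and with endometrium higher in 4 of 4 animals. UBQLN4, TXNL1 and UFD1L followed with 0.61, 0.55 and 0.42. In the other direction the smallest p were those of UBE3C, a ligase that extends ubiquitin chains on the proteasome, at -1.31 (limma p = 0.0617, exact permutation 2 of 16), of the protease DDI2 at -1.24, of the ubiquitin receptor ADRM1 at -1.14 and of AKIRIN2, which takes the proteasome into the nucleus, at -1.09. ADRM1 was dim, well above background in 5 of 8 endometrial and 6 of 8 blood channels, and its ratio was -2.58 in animal 2.

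Of the genes of ubiquitin itself and its activating enzymes, UBA1 had a log2 ratio of 0.35, UBB one of 0.25 and UBA6 one of 0.06, and none of the 3 was called. RPS27A, which encodes ubiquitin fused to a ribosomal protein, had a log2 ratio of -0.90 (limma p = 0.138, exact permutation 4 of 16) and was not called either. The 20S assembly chaperones PSMG1, PSMG2 and PSMG3 are no members by their name in the files and were named through the reference table. PSMG1 and PSMG2, which act as a pair, had ratios of 1.13 and -1.41 with adjusted p of 0.331 and 0.346, and PSMG3 had one of 0.05.

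The proteasome genes varied less between animals than the array as a whole. The median SD of the 4 log2 ratios was 0.66 over the 39 genes and 1.12 over all probes tested. The 39 genes were well above background in all 16 channels, while all probes tested include dimmer ones. Probes of equal brightness were not compared. By tissue, the median SD of the level was 0.45 in endometrium and 0.36 in blood for the genes, and 1.07 and 0.72 for all probes. In animal 3, 17 of the 39 genes, or 43.6%, were past a fold change of 2 in either direction, against 61.4% of all probes, and in animal 4 only 1 gene was, or 2.56%, against 29.3%. The largest gap between the slides of an animal had a median of 0.23 over the genes and was 0.66 for PSMB7, and the log2 ratio had the same sign on both slides in 141 of 156 readings of a gene in an animal.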

How the data were processed

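RNA of CD14+ cells was measured on Agilent bovine arrays with 2 colours, and the 16 labels define 4 animals, 2 tissues and 2 technical replicates. The authors read the arrays with Agilent Feature Extraction, 9.5 per the labels and 10.5.1.1 per the file headers. Their deposited table holds log2 values normalized by lowess and by quantiles over the 16 channels, and it gave all values of the report. The authors' scanner files give the median intensity of each spot and of its background, and a processed intensity corrected for background and dye; these gave the alternatives and the flags for background. Within an animal the scanner files and the table are exchanged between technical replicates: as the mean of the spots of a probe, each of the 16 columns equaled, within 0.001, the channel of its dye in the file listed for the repeat array. Files were read that way, a choice made after the values were seen.

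Probes were tested with limma 3.58.1 in R 4.3.3 on the within-animal log2 ratios, with p adjusted by Benjamini and Hochberg over 16653 probes, and the fit was tested on simulated data. Pairing comes from the animal numbers in the labels, and deviations of the tissues of an animal from the tissue means correlated with r of 0.63, 0.37, 0.24 and 0.45. Arrays of an animal were averaged, and the 4 animals are the replicates. Quantile normalization gives all channels the same set of values, so that a change of total RNA is not seen. Members and gene lists were chosen with earlier results of these data known. Named in full were PSMB5, PSMB6, PSMB7, PSME1, PSME2, PSME3 and up to 8 genes in each direction with the smallest p and the same sign in 4 animals; of partner and ubiquitin lists, up to 4 genes in each direction. Names were checked against a RefSeq table, which gave the rule's symbol for 37 of 40 genes. The qPCR of the study was not analysed here. A gene of the ubiquitin list is not reported here. Alternatives changed the signals, normalization, centring, filter, pairing, dye term, slides, animals, test and probe.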

Additional observations from a re-analysis of the deposited data

Results flagged for a closer look

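The log2 ratio of PSMC4, an ATPase of the 19S cap, was -1.77 in animal 3, far from the -0.09, 0.16 and 0.21 of animals 1, 2 and 4. Its gap to the nearest of the others was 0.849 of the whole range, above Dixon's critical value for 4 samples. The endometrial level of animal 3 was 10.19 against 11.99 to 12.17 in the other animals, and its blood level was 11.96. This was 1 of the 39 genes examined, and chance alone marks about 5% of groups.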

How the results depend on the processing

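No proteasome gene was called under any of the alternatives run, and across them the lowest adjusted p of a proteasome gene lay between 0.120 and 1.00. The 224 probes called over the array became 11 with normexp, loess and quantile normalization of the scanner signals, 123 without the filter on dim probes, 104 with probes well above background in all 16 channels, and 0 with the methods' analysis of variance or with the files read as attached. Without the pairing (no replicate block) 38 probes were called, and 4 genes passed the unadjusted p with the fold change in place of 2. With only the slide of technical replicate 1, that number was 1, and with the files as attached it was 0. With an animal left out it was 0 to 1, the probes called were 0 to 180, and the median log2 ratio of the genes ran from -0.28 to -0.027, the latter without animal 3. With the files as attached the median was -0.043. Leaving out an animal moved PSMB5 between -9.6e-04 and 0.83, PSME1 between -0.23 and 0.22 and PSME3 between -0.057 and 0.41, with the turns of sign without animals 1, 1 and 4. PSME1 was 0.10 with ratios centred and 0.038 on the slide of technical replicate 2. PSME3 was -0.77 as the mean of its probes and, in an alternative chosen after seeing the data, -1.71 with its other probe. With the files as attached, the log2 ratios of 8 genes turned, to -0.39 for PSMB5, 0.043 for PSMB6, -0.31 for PSMB7, -0.48 for PSMD10, -0.12 for PSMD4, -0.043 for PSMD13, 0.17 for PSMB4 and 0.18 for PSMA1. Relative to the deposited values, the files as attached exchange the tissues in animals 1, 2 and 4, whose dyes were swapped, and keep them in animal 3. The causes of the other changes were not tested. The directions of the other 6 named genes held in all of these. The number of animals limits the precision.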
